A study of Mus musculus with 8 samples.

Results

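The genes described here are 8 markers of pre-granulosa cells, the supporting cells of the fetal ovary: Foxl2, Fst, Wnt4, Rspo1, Bmp2, Irx3, Lgr5 and Amhr2. Their rows were found by symbol, with no use of measured values, and each gene had 1 row in both deposited expression tables, among 24281 loci with a gene name in the female table and 23944 in the male table. The libraries were made from sorted germ cells, not from pre-granulosa cells, so the levels below are those of supporting cell genes in germ cell RNA.

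RNA-Seq was performed on E15.5 mouse germ cells that carried the Oct4-EGFP transgene, in which the Oct4 promoter drives a green fluorescent protein, and that had been isolated by cell sorting. There were 8 libraries, with 2 of control and 2 of Snf5 CKO germ cells from each sex. Snf5, listed under its symbol Smarcb1, encodes a subunit shared by SWI/SNF complexes, which remodel chromatin, and the comparison asks how its loss changes gene expression in each sex. Snf5 CKO embryos were Snf5fx/Δ with TNAP-Cre: they inherited 1 deleted allele, and Cre removed the first exon of the floxed allele in cells that express Cre from the Alpl gene. The control samples were mixed from Snf5fx/+ embryos, Snf5fx/Δ embryos and Snf5fx/+ embryos with TNAP-Cre, so some control cells carried a deleted allele or Cre as well. Recombination by this Cre was not complete, several embryos were pooled for most samples, and the labels give C57BL/6 as the background whereas the methods describe a mixed one. For the male Snf5 CKO samples the paper lists fewer embryos than for the male controls, with a single embryo for replicate 2. The samples are described as biological duplicates.

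In the fetal ovary, RSPO1 binds receptors of the LGR family and strengthens WNT signalling, and with WNT4 it keeps beta-catenin active in the supporting cells. FOXL2 is a forkhead transcription factor that maintains granulosa identity against the Sertoli fate of the testis. Follistatin (Fst) binds and neutralizes activins, BMP2 is a ligand of the BMP family, AMHR2 is the receptor for anti-Müllerian hormone, and IRX3 is a homeodomain factor of the Iroquois family. Several of these genes are also used elsewhere: Amhr2 is expressed in Sertoli and Leydig cells of the testis, and WNT and BMP ligands act in many tissues.

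The authors deposited a separate table for each sex with FPKM values (fragments per kilobase of transcript, scaled to the number of mapped fragments), which are scaled per length, so that levels of different genes can be compared within a library. Counts are not among the columns, so the depth behind a value is unknown, and intervals that need counts could not be given. The columns do hold confidence bounds for the FPKM values, and these were left aside. Each sex was tested alone with limma on log2(FPKM + 1) over all named genes that averaged at least 1 FPKM, which were 11529 genes in females and 12279 in males, and a gene was called higher or lower in Snf5 CKO at a log2 difference of at least 1 in size and an adjusted p under 0.05. Differences named log2 are on this log2(FPKM + 1) scale, on which low genes change by less than their true fold, and folds are ratios of the mean FPKM. The smallest p that an exact permutation (two-sided) of 2 and 2 libraries allows is p = 0.333, so each p here comes from the model across all genes. In bulk RNA, fewer cells of a type and less RNA per cell cannot be told apart, nor can transcription in germ cells and RNA of neighbouring cells carried over in the sort. The paper lists a high purity for every sorted sample, with similar values in control and Snf5 CKO females. In males the listed purities of control and Snf5 CKO samples overlapped, and the highest belonged to a Snf5 CKO sample. How purity related to the levels below was not tested.

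The FPKM of a library summed to between 673741 and 1554760, and loci with no gene name held between 5.46% and 42.1% of it. In males both replicate 1 libraries had lower sums than both replicate 2 libraries. The male unnamed share was 6.56% (control) and 5.46% (Snf5 CKO) in replicate 1 and 42.1% and 35.4% in replicate 2. In females Snf5 CKO replicate 1 had the lowest sum and 9.94% unnamed, and the other libraries held at least 28.2%. Smarcb1 was at 22.9 ± 0.721 FPKM (SD, n = 2) in female control and 3.36 ± 1.25 FPKM in female Snf5 CKO, and at 154 ± 18.4 and 9.39 ± 0.940 FPKM in males, so the label of every library was met by its level, although the values cover the whole gene and not the deleted exon alone. As a check of the cell type, the summed FPKM of 8 germ cell markers lay between 3169 and 5530 in every library, whereas the summed FPKM of the 8 pre-granulosa genes lay between 10.96 and 34.3. The check is rough, because several of the germ cell markers differed between the genotypes. Markers of other gonadal cells reached higher sums, with 979 and 1360 FPKM for the Sertoli cell markers described below in male Snf5 CKO. The median log2 difference of all tested genes was -0.13 in females and -0.07 in males, and rescaling the libraries moved it by 0.02 or 0.16 in females and by -0.17 or 0.14 in males. Of the genes called, 44.5% in females and 45.2% in males were higher in Snf5 CKO, and this split was 53.4% and 54.6% after median-of-ratios rescaling and 45.8% and 33.8% after rescaling to a common sum. None of the calls of the 8 genes changed under either rescaling.

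All 8 genes are protein coding, and the tables place them on mm10 as follows. Foxl2 lies at chr9:98955607-98958126, Irx3 at chr8:91798511-91801654, Rspo1 at chr4:124986430-125009099 and Lgr5 at chr10:115450314-115587780. Amhr2 lies at chr15:102445367-102454639. Wnt4 starts at 137276872 in the female table and 137277635 in the male table and ends at 137299501 on chromosome 4, Bmp2 starts at 133551920 and 133552159 and ends at 133562896 on chromosome 2, and Fst starts at 114452262 and ends at 114458951 and 114458888 on chromosome 13. In the GENCODE annotation of this build, antisense genes overlap Fst (Gm47040), Rspo1 (Gm12930), Irx3 (Irx3os) and Lgr5 (A930009A15Rik). The first 3 antisense genes have no row of their own, and A930009A15Rik is listed at 0 in all 8 libraries. Whether reads were counted by strand is not given in the sources used here, so reads in these overlaps cannot be told apart.

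The promoters of Rspo1 and Amhr2 are shown because these were the members called in both sexes, Rspo1 in opposite directions. Each sequence is the 250 bases before the RefSeq start on GRCm38.p6, at chr4:124986180-124986429 for Rspo1 and chr15:102445117-102445366 for Amhr2, both on the plus strand, and capitals mark a match to AAGGTCA, the core element that the nuclear receptor NR5A1 binds.
Rspo1: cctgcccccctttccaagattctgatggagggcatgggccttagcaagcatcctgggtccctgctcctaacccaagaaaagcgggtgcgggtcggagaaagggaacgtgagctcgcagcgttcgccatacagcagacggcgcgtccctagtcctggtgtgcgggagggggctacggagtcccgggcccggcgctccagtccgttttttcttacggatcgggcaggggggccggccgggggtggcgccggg
Amhr2: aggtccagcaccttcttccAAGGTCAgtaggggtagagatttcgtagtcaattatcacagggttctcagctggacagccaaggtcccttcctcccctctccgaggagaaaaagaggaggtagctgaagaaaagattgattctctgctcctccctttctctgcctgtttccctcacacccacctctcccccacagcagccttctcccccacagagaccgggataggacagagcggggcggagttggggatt

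RefSeq promoters were found for 5 of the 8 genes (Foxl2, Wnt4, Rspo1, Irx3 and Amhr2), and Fst, Bmp2 and Lgr5 were not matched. These 250-base windows were searched on both strands for the TCF/LEF core CTTTGA, the NR5A1 element AAGGTCA, the GATA core AGATAA and the forkhead core TAAACA, none of which contains another and which 13.8%, 4.08%, 9.99% and 12% of 32851 mouse promoters of the same length hold. A single match was found, AAGGTCA in the Amhr2 promoter, starting at position -231 relative to the annotated start. The base composition of the windows differed, with 66.8% G and C in Rspo1 and 55.2% in Amhr2, and a match of letters is a description and not a binding site.

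In female germ cells 4 of the 8 genes were called higher in Snf5 CKO (Fst, Rspo1, Irx3 and Amhr2) and 1 was called lower (Bmp2), and in males 1 was called higher (Amhr2) and 1 lower (Rspo1). The share of all tested genes called higher was 17.3% in females and 14.4% in males, and the share called lower was 21.6% and 17.4%. These shares are also the background for the counts of called genes in the lists below. The filter of 1 FPKM left 7 of the 8 genes in females and 3 in males. In females Foxl2 and Wnt4 had a control mean under 1 FPKM and passed the filter through their Snf5 CKO libraries, so a difference in them was needed for them to be tested at all. Counted without the filter, 7 of the 8 genes had both Snf5 CKO libraries above both controls in females and 1 had both below, where 31.2% and 39.3% of all named genes above 0 did so. In males 4 had both libraries above and 3 had both below, where 28% and 40.8% of all named genes did so. By the adjusted p alone, 6 of the 8 genes, Foxl2 and Wnt4 among them, were higher and 1 lower in females (26.9% and 34.6% of all tested genes), and 1 was higher and 1 lower in males (21% and 25.3%). The median log2 difference over all 8 genes was 0.90 in females and -0.04 in males.

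**Figure D1:**
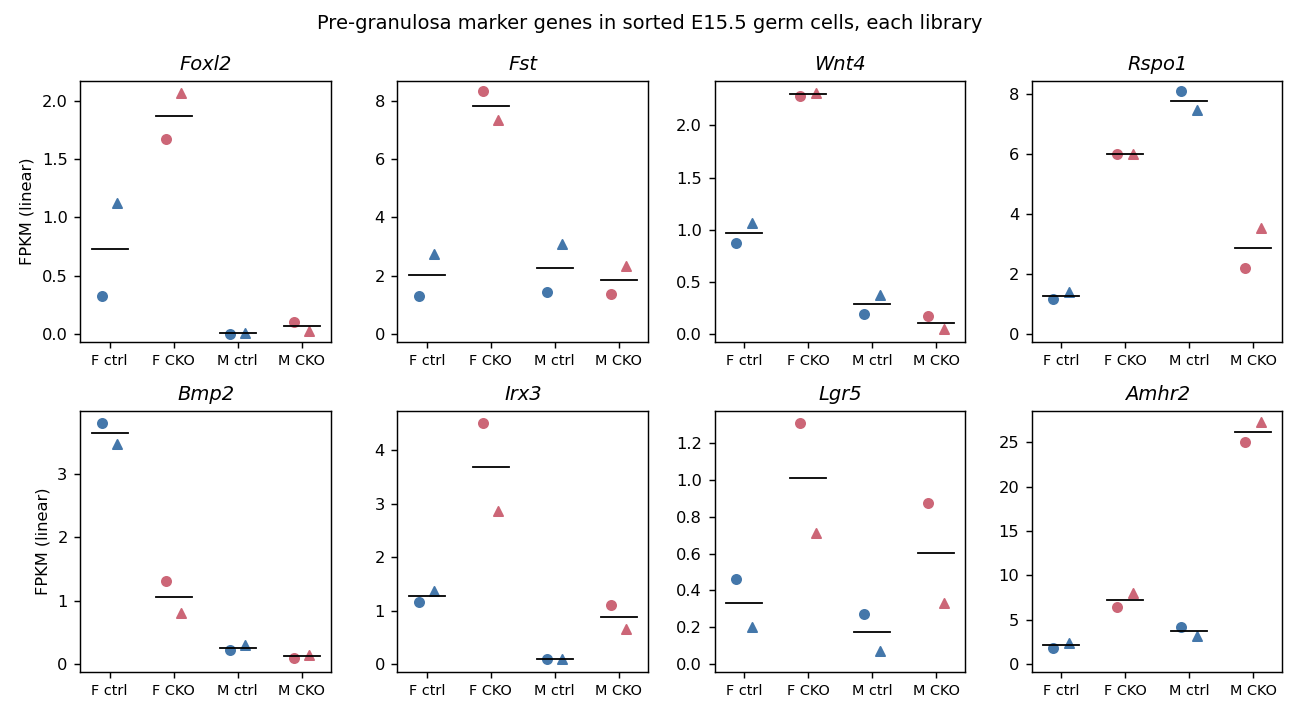
FPKM (linear scale, from 0) of the 8 pre-granulosa genes in each library of female control (F ctrl), female Snf5 CKO (F CKO), male control (M ctrl) and male Snf5 CKO (M CKO) germ cells. Circles are replicate 1, triangles replicate 2 and bars the mean of 2 libraries; 7 genes were higher in both female Snf5 CKO libraries than in both female controls, and Rspo1 had the opposite order in males.

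The transcription factors of the group were low in both sexes. Foxl2, the defining gene of the granulosa fate, was at 0.328 and 1.13 FPKM in control females and at 1.67 and 2.07 FPKM in Snf5 CKO females. Both Snf5 CKO libraries were above both controls, and the controls differed from each other by more than the Snf5 CKO libraries did. Its log2 difference of 0.77 (standard error 0.26, adjusted p = 0.040 from limma) did not reach the size for a call, and it rested on the control libraries: it was 1.11 and called without control replicate 2, and 0.43 (adjusted p = 0.16) without control replicate 1. The adjusted p of Foxl2 was also over 0.05 without Snf5 CKO replicate 2 (0.060), with no filter (0.078) and with a pseudocount of 0.1 (0.056). In males Foxl2 was listed at 0 and 0.00951 FPKM in control and at 0.105 and 0.0245 FPKM in Snf5 CKO, so all 4 male libraries lay below the lowest female one, in a table that was normalized separately.

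Irx3 was at 1.17 and 1.37 FPKM in control females and at 4.50 and 2.86 FPKM in Snf5 CKO females, a 2.90-fold difference in means. Both Snf5 CKO libraries were above both controls, and Snf5 CKO replicate 1 was well above replicate 2. The log2 difference of 1.02 (standard error 0.23, adjusted p = 0.0081) was just past the size for a call, and it was 0.96 without control replicate 1 and 0.77 without Snf5 CKO replicate 1, neither of which was called. In males Irx3 was at 0.0975 and 0.0924 FPKM in control and at 1.10 and 0.663 FPKM in Snf5 CKO, a 9.29-fold difference in means between groups that did not overlap. The male mean was under 1 FPKM, so this difference was not tested.

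Rspo1, the secreted activator of WNT signalling, was at 1.16 and 1.38 FPKM in control females and at 6.01 and 5.98 FPKM in Snf5 CKO females. The groups were far apart, with little spread within either, and the mean was 4.72-fold higher in Snf5 CKO (log2 difference 1.63, standard error 0.19, adjusted p = 0.00052). In males the order was the reverse: Rspo1 was at 8.07 and 7.45 FPKM in control and at 2.21 and 3.54 FPKM in Snf5 CKO. The male groups did not overlap either, and Rspo1 fell by 1.20 on the log2 scale (standard error 0.24, adjusted p = 0.014), a mean 2.70-fold higher in control. Without male Snf5 CKO replicate 1 the male log2 difference was -0.95 and was not called. Whether the difference between the genotypes itself differed between the sexes was not tested, because the tables were normalized separately.

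Wnt4, the ligand that acts with RSPO1 in the ovary, was at 0.873 and 1.06 FPKM in control females and at 2.28 and 2.31 FPKM in Snf5 CKO females. The Snf5 CKO libraries were almost equal and both were above the controls, and the log2 difference of 0.75 (standard error 0.19, adjusted p = 0.012) was short of the size for a call. With a pseudocount of 0.1 in place of 1 the same difference was 1.17 and was called. In males Wnt4 was at 0.196 and 0.378 FPKM in control and at 0.172 and 0.0469 FPKM in Snf5 CKO, with both Snf5 CKO libraries below the controls, and was not tested. Lgr5, a receptor for R-spondins, was at 0.464 and 0.204 FPKM in control females against 1.31 and 0.713 FPKM in Snf5 CKO, and at 0.273 and 0.0734 FPKM against 0.871 and 0.334 FPKM in males. Its groups did not overlap in either sex, replicate 1 was above replicate 2 in all 4 groups, and no mean over a table reached the filter, so Lgr5 was not tested.

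Fst was the most abundant of the 8 genes in female Snf5 CKO. It was at 1.30 and 2.73 FPKM in control females and at 8.33 and 7.35 FPKM in Snf5 CKO females. The groups did not overlap, and the mean was 3.89-fold higher in Snf5 CKO (log2 difference 1.59, standard error 0.27, adjusted p = 0.0023). In males Fst was at 1.44 and 3.09 FPKM in control and at 1.36 and 2.32 FPKM in Snf5 CKO. The male groups overlapped, replicate 2 was above replicate 1 in both, and the log2 difference of -0.17 (standard error 0.33, adjusted p = 0.69) changed its sign without control replicate 2 and without Snf5 CKO replicate 1.

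Bmp2 was the gene of the group that fell in females. It was at 3.80 and 3.47 FPKM in control females, the highest level among the 8 genes there, and at 1.32 and 0.812 FPKM in Snf5 CKO females. The groups did not overlap, the mean was 3.42-fold higher in control, and the log2 difference was -1.18 (standard error 0.21, adjusted p = 0.0029). Without Snf5 CKO replicate 2 the difference was -0.9998, just short of the size for a call, and Bmp2 was not called. In males Bmp2 was at 0.223 and 0.295 FPKM in control and at 0.0924 and 0.152 FPKM in Snf5 CKO, again with both Snf5 CKO libraries below the controls, and was not tested.

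Amhr2, the receptor for anti-Müllerian hormone, was called higher in Snf5 CKO in both sexes. In females it was at 1.88 and 2.34 FPKM in control and at 6.48 and 8.003 FPKM in Snf5 CKO, with no overlap, a 3.43-fold higher mean and a log2 difference of 1.40 (standard error 0.21, adjusted p = 0.0013). In males it was at 4.23 and 3.18 FPKM in control and at 25.0 and 27.2 FPKM in Snf5 CKO. The male mean was 7.05-fold higher in Snf5 CKO (log2 difference 2.54, standard error 0.20, adjusted p = 0.0022), and no other gene of the group reached a level near that of Amhr2 in male Snf5 CKO.

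**Figure D2:**
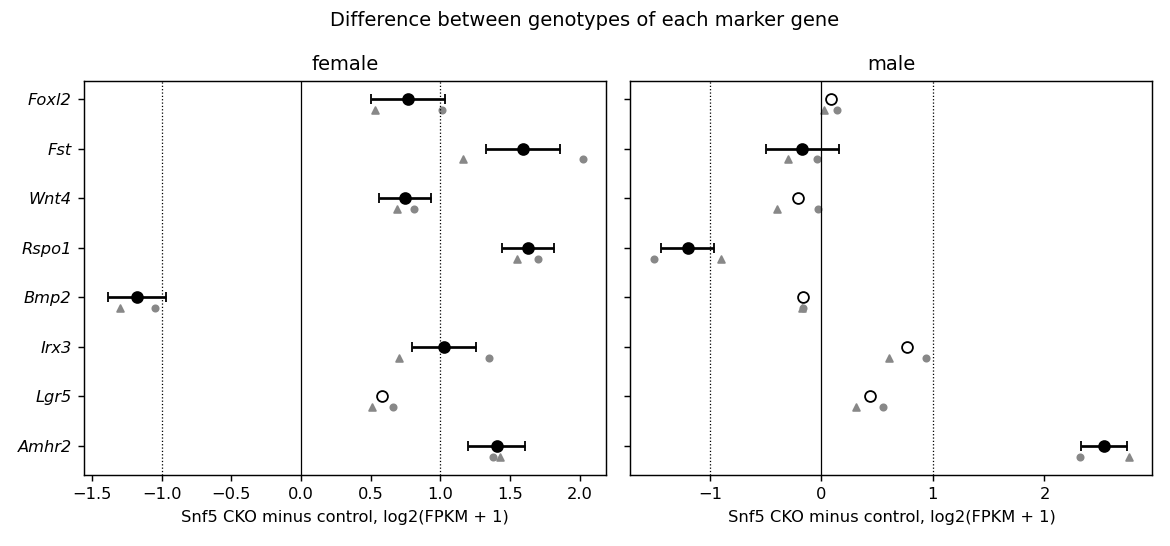
Difference of Snf5 CKO minus control in log2(FPKM + 1) for each gene in females (left) and males (right). Black filled points are tested genes with their standard error, open points genes under the filter of 1 FPKM, grey circles and triangles the differences within replicate 1 and replicate 2, and dotted lines a difference of 1 in size; Amhr2 was past the line in both sexes, and Rspo1 was past it on opposite sides.

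The 8 genes together summed to 10.96 and 13.7 FPKM in control against 31.9 and 30.1 FPKM in Snf5 CKO in females, and to 14.5 and 14.6 FPKM against 30.9 and 34.3 FPKM in males. The mean sums were 2.51-fold and 2.24-fold higher in Snf5 CKO, and the genes that made them up differed between the sexes. In females Bmp2 held 34.7% and 25.3% of the sum in control and 4.13% and 2.70% in Snf5 CKO. In males Rspo1 held 55.6% and 51.1% of the sum in control and 7.14% and 10.3% in Snf5 CKO, where Amhr2 held 80.9% and 79.4%. In order of mean level, the female controls ran Bmp2, Amhr2, Fst, Irx3, Rspo1, Wnt4, Foxl2 and Lgr5, where the values of Amhr2 and Fst, Fst and Irx3, Irx3 and Rspo1, Wnt4 and Foxl2, and Foxl2 and Lgr5 overlapped. In female Snf5 CKO the order was Fst, Amhr2, Rspo1, Irx3, Wnt4, Foxl2, Bmp2 and Lgr5, with overlap between Fst and Amhr2 and between Bmp2 and Lgr5. In the male controls Rspo1, Amhr2 and Fst led in that order without overlap, and the other 5 genes were at most 0.378 FPKM in either library. In male Snf5 CKO Amhr2 stood apart, and Rspo1 and Fst followed with overlapping values.

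As a description of pattern, the 17195 named genes above 0 in both tables were ranked by the root mean square difference of log2(FPKM + 1) from Amhr2 and from Rspo1 over the 8 libraries. The nearest to Amhr2 were Decr2 (0.282), Impa1 (0.288) and Emp3 (0.303). Decr2, for instance, went from 1.53 and 1.64 FPKM to 6.91 and 7.15 FPKM in females and from 2.97 and 2.47 FPKM to 21.5 and 20.01 FPKM in males. The nearest to Rspo1 were a locus that merges Lrfn1 with Mir466f-2 (0.248), Grhl1 (0.342) and C77080 (0.351). The measure compares levels as well as direction and rests on 8 libraries of 2 separately normalized tables.

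Of the 18 WNT ligands other than Wnt4, 4 passed the filter in females, and all 4 were called higher in Snf5 CKO. Wnt3 rose 19.1-fold, from 0.396 ± 0.0100 to 7.58 ± 0.348 FPKM (SD, n = 2), with a log2 difference of 2.62 (adjusted p = 0.00012). Wnt2b rose 7.25-fold, Wnt6 5.35-fold and Wnt5b 5.22-fold. Wnt2b and Wnt3 had control means under 1 FPKM and, like Wnt4, passed the filter through Snf5 CKO, and over all 18 ligands 7 had both Snf5 CKO libraries above the controls and 3 had both below, where 31.2% and 39.3% of all named genes did so. In males 5 of the 18 were tested: Wnt3 rose 2.63-fold and Wnt6 6.06-fold, whereas Wnt9a and Wnt11 were 4.02-fold and 4.09-fold higher in control. Wnt5b, which rose in females, had a male log2 difference of -0.97 (standard error 0.17, adjusted p = 0.011) and was not called. Wnt9a, Wnt11 and Wnt5b had male Snf5 CKO means under 1 FPKM and passed the filter through control.

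The other R-spondins, their LGR receptors and the E3 ligases that they restrain made a list of 7 without Rspo1 and Lgr5, of which 4 were tested in each sex. Rspo3 was called higher in both sexes, at 0.132 and 0.0429 FPKM in the female controls against 6.61 and 4.89 FPKM in female Snf5 CKO, and at 0.0954 and 0.241 FPKM against 3.45 and 2.57 FPKM in males. Rspo3 passed the filter through Snf5 CKO in both sexes, and in males it had both Snf5 CKO libraries above the controls, where Rspo1 had both below. Rspo4 was 25.3-fold higher in control in males, at 15.5 and 19.5 FPKM against 0.529 and 0.853 FPKM. Lgr4, the most abundant receptor of the list, rose 9.97-fold in males (4.73 ± 0.646 to 47.2 ± 13.6 FPKM) and was not called in females (13.3 ± 1.99 against 18.9 ± 1.36 FPKM, adjusted p = 0.061), and Lgr6 was 7.67-fold higher in female control. Rspo4 in males and Lgr6 in females had Snf5 CKO means under 1 FPKM and passed the filter through control. The E3 ligase gene Znrf3 had both Snf5 CKO libraries below the controls in both sexes and was not called in either.

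Downstream of the ligands, 8 of 10 effectors and feedback targets of beta-catenin were tested in each sex. In females 6 were called higher and 1 lower, where 17.3% and 21.6% of all tested genes were. In males 3 were called higher and 1 lower, where 14.4% and 17.4% of all tested genes were. Sp5 and Notum, which are targets of the pathway, rose in both sexes, Sp5 8.08-fold in females and 4.59-fold in males and Notum 5.18-fold and 9.90-fold, as did Tcf7l1, which encodes a TCF factor known mainly as a repressor (12.4-fold and 9.07-fold). Axin2, another feedback target, rose 5.09-fold in females, from 1.96 and 1.89 FPKM to 10.9 and 8.70 FPKM, and was not called in males (3.15 and 3.03 against 4.75 and 3.43 FPKM, adjusted p = 0.29). Lef1 rose 4.96-fold in females, and its male groups overlapped (adjusted p = 0.77). Tcf7 rose 2.28-fold in females and was 3.99-fold higher in control in males, the same pair of directions as Rspo1. Nkd1, a feedback inhibitor, was 3.86-fold higher in female control, and Ctnnb1, which encodes beta-catenin itself, was called in neither sex (146 ± 11.4 against 146 ± 23.2 FPKM in females, 241 ± 54.1 against 194 ± 32.7 FPKM in males). The median log2 difference of the 8 tested genes was 2.02 in females and 0.11 in males, beside -0.13 and -0.07 over all tested genes.

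**Figure D3:**
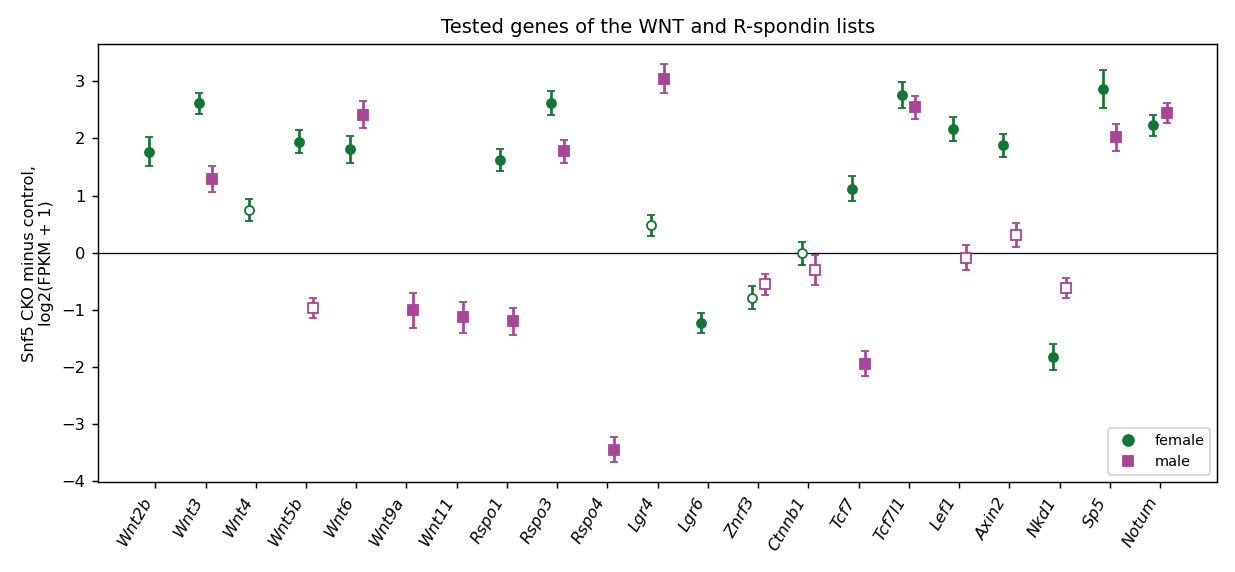
Difference of Snf5 CKO minus control in log2(FPKM + 1) for the tested genes of the WNT, R-spondin and beta-catenin lists, with Wnt4 and Rspo1 among them, in females (green circles) and males (purple squares). Filled symbols are called genes, open symbols are tested genes that were not called and bars are standard errors; Sp5, Notum, Tcf7l1, Rspo3, Wnt3 and Wnt6 were called higher in both sexes, and Rspo1 and Tcf7 were called on opposite sides.

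The partners of Fst, Bmp2, Amhr2 and Irx3 are described by list. Of the 7 genes of activins, inhibins and their receptors other than Fst, 4 were tested in females and none was called by limma, and 2 of the 4 had an unadjusted p under 0.05, where 66.1% of all tested genes did. The activin receptor gene Acvr1b (0.558 and 0.319 against 1.84 and 1.36 FPKM) passed the filter through Snf5 CKO and had an adjusted p of 0.010. In males Inha and Inhbb, which encode subunits of inhibin, rose 3.68-fold and 4.13-fold, and the most abundant genes of the list were Acvr2b in females and Inha in males. Of the 11 BMP and AMH genes other than Bmp2 and Amhr2, 6 were tested in females: Bmp7 and Acvr1 rose 3.47-fold and 6.61-fold, and Bmpr2 and Smad5 were 3.86-fold and 2.69-fold higher in control. Bmpr2 had a female Snf5 CKO mean under 1 FPKM and passed the filter through control. In males 7 were tested: Amh, the ligand of AMHR2, rose 5.60-fold from 17.3 and 16.5 FPKM to 69.7 and 120 FPKM, Bmpr1a and Smad1 rose 2.60-fold and 2.81-fold, and Bmp4 was 3.19-fold higher in control. In females Amh was at 0.123 and 0.112 FPKM in control and at 0.0740 and 0.0125 FPKM in Snf5 CKO. Among the 5 Iroquois genes other than Irx3, Irx2 was 2.78-fold higher in female control, and Irx5 rose 49.7-fold in males, from 0.194 and 0.114 FPKM to 7.19 and 8.16 FPKM, and had a female log2 difference of 0.55 (standard error 0.18, adjusted p = 0.034) that was not called.

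The markers of other gonadal cells that a sort could carry over differed between the genotypes as well, and in males Sertoli cell markers rose together with Amhr2. Of 12 Sertoli cell markers 11 were tested in males and 10 were called higher in Snf5 CKO (Sox9, Sox10, Sox8, Amh, Dhh, Cst9, Ptgds, Aard, Inha and Clu), where 14.4% of all tested genes were. Of these Sox10 passed the filter through Snf5 CKO. The sum of all 12 was 259 and 205 FPKM in control against 979 and 1360 FPKM in Snf5 CKO, a ratio of 5.04. Sox9, the gene that sets the Sertoli fate, was at 2.98 and 2.51 FPKM in control males and at 11.1 and 11.4 FPKM in Snf5 CKO males. The ratio for Amhr2 was 7.05, and the part of this RNA in the result for Amhr2 was not tested. Leydig cells also express Amhr2, and of 7 Leydig cell markers 6 were tested in males: Cyp11a1, Cyp17a1 and Insl3 (listed as a locus merged with Jak3) were 7.23-fold, 9.01-fold and 3.38-fold higher in control, and Nr5a1, which Sertoli cells express too, was higher in Snf5 CKO. The Leydig sum was 89.8 and 60.4 FPKM in control males and 29.6 and 27.2 FPKM in Snf5 CKO males, and Rspo1 moved in the same direction. In males the 10 stromal and interstitial markers had Pdgfra, Col1a1 and Col3a1 called lower of 4 tested and sums of 23.6 and 12.6 FPKM against 5.31 and 3.82 FPKM, and their part in the fall of Rspo1 was not tested. Pdgfra and Col1a1 had male Snf5 CKO means under 1 FPKM and passed the filter through control.

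The other genes of the supporting lineage, 14 genes that pre-granulosa and Sertoli cells share or that mark their precursors, were called in different numbers in the sexes. In males 7 of 9 tested genes were called higher (Irx5, Kitl, Wt1, Gata4, Nr5a1, Hsd17b1 and Gja1) and 1 lower (Npr2). Of all tested genes 14.4% and 17.4% were. Of the 9 male genes 3 (Irx5, Kitl and Nr0b1) had a control mean under 1 FPKM and passed the filter through Snf5 CKO. The male count is therefore partly set by the filter. The list summed to 34.8 and 22.5 FPKM in control males and to 93.3 and 99.2 FPKM in Snf5 CKO males. In females none of 7 tested genes was called higher and Npr2 was called lower, but 6 had an adjusted p under 0.05 with a higher level in Snf5 CKO, where 26.9% of all tested genes did so, and 7 of 7 had an unadjusted p under 0.05 in limma, where 66.1% of all tested genes did. Of the 7 tested genes 5 (Irx5, Kitl, Wt1, Nr5a1 and Gja1) had a control mean under 1 FPKM and passed the filter through Snf5 CKO, so these counts are partly set by the filter. Gata4 was at 1.90 and 1.79 FPKM in control females and at 4.82 and 3.30 FPKM in Snf5 CKO females (log2 difference 0.81, adjusted p = 0.016), and Wt1 at 0.416 and 0.804 FPKM against 1.84 and 1.46 FPKM (log2 difference 0.73, adjusted p = 0.022). These are general markers of gonadal somatic cells. Of the 14 genes 11 had both female Snf5 CKO libraries above both controls and 1 had both below, where 31.2% and 39.3% of all named genes did so. The female sum was 13.9 and 13.04 FPKM in control and 23.9 and 17.3 FPKM in Snf5 CKO; the part of carried-over supporting cells in the female differences of Foxl2, Fst, Wnt4, Rspo1 and Amhr2 was not tested.

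In females the defining Sertoli cell markers were at or near 0: Dhh and Cst9 were listed at 0 in both controls and were at most 0.127 and 0.153 FPKM in Snf5 CKO, and Sox9 was at most 0.132 FPKM in any library. The female sum of the Sertoli list nevertheless went from 19.4 and 26.9 FPKM to 98.9 and 88.8 FPKM, of which Dmrt1, which germ cells express as well, made 7.39 and 9.91 FPKM in control and 72.6 and 59.2 FPKM in Snf5 CKO. Of 4 tested Sertoli cell markers Dmrt1, Clu and Aard were called higher in females, the remaining one, Inha, had both Snf5 CKO libraries below the controls (5.06 and 5.43 against 3.65 and 3.77 FPKM, not called), and so did Fgf9, which was not tested (1.87 and 0.710 against 0.104 and 0.124 FPKM). Leydig cell markers summed to 5.36 and 5.62 FPKM in control females against 14.6 and 13.3 FPKM in Snf5 CKO. Most of this sum was the merged Insl3 and Jak3 locus (3.13 and 3.99 against 8.52 and 10.1 FPKM), in which the 2 genes cannot be told apart. Of 3 tested that locus alone was called, and the others, Hsd3b1 and Nr5a1, had control means under 1 FPKM and passed the filter through Snf5 CKO. Cyp11a1 and Cyp17a1 were at most 0.0857 and 0.264 FPKM. Stromal markers had sums of 14.3 and 6.43 FPKM in control females and 4.37 and 5.67 FPKM in Snf5 CKO females, and Col1a1 was called lower of 2 tested. Its female Snf5 CKO mean was under 1 FPKM, so Col1a1 passed the filter through control. Of the 10 stromal markers 3 had both female Snf5 CKO libraries below the controls and 1 had both above, where 39.3% and 31.2% of all named genes did so. The stromal sum of control replicate 2 was close to the Snf5 CKO sums. Bmp2 fell in these same female libraries, and the part of stromal RNA in that fall was not tested.

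Of 5 markers of the surface epithelium, Lrrn4 was called higher in both sexes (9.61-fold in females and 6.29-fold in males), whereas Krt7 in females had both Snf5 CKO libraries below the controls, at 3.64 and 2.26 FPKM against 0.991 and 0.901 FPKM (log2 difference -0.998, adjusted p = 0.0086, not called). In males Krt19 (1.46 and 1.30 against 0.0602 and 0.466 FPKM), Upk1b and Upk3b had both Snf5 CKO libraries below the controls and were not tested, and Upk3b was at most 0.2502 FPKM in females and 0.160 FPKM in males. Blood and endothelial markers made 7 loci in females and 8 in males, and Hbb-bs, in a locus merged with Hbb-b1, was the most abundant. Their female sums were 25.8 and 99.0 FPKM in control and 28.1 and 84.3 FPKM in Snf5 CKO. The male sums were 63.2 and 103 FPKM in control and 60.7 and 65.0 FPKM in Snf5 CKO. Replicate 2 was above replicate 1 in each group, and the female sums followed the replicate number more than the genotype. Pecam1, which fetal germ cells also express, was called higher in female Snf5 CKO (5.68-fold) and Tek lower in males (4.01-fold higher in control), and Cdh5 was at most 0.131 FPKM in females. Tek had a male Snf5 CKO mean under 1 FPKM and passed the filter through control. Among 8 germ cell markers, female Snf5 CKO libraries had more Dppa3, Pou5f1, Dnd1 and Kit and less Mael and Sycp3, and male Snf5 CKO libraries had more Kit and less Dnd1, Mael and Sycp3. The germ cell sum was 4538 and 4359 FPKM in control females against 3169 and 3416 FPKM in Snf5 CKO, and 5073 and 5530 FPKM against 4515 and 5071 FPKM in males. Pou5f1 (Oct4), whose promoter drives the sorting transgene, rose 24.7-fold in females, from 8.63 and 16.7 FPKM to 295 and 333 FPKM, so the level of the endogenous sorting gene differed between the female groups as well.

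**Figure D4:**
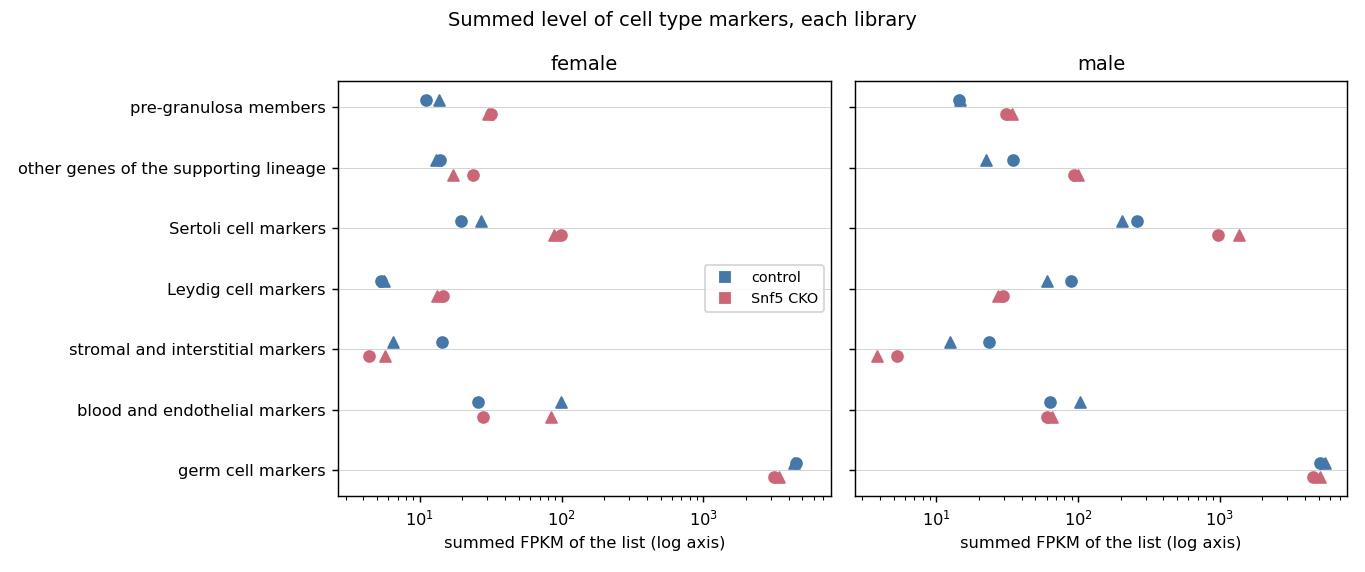
Summed FPKM (log axis) of each cell type list in each library, for females (left) and males (right), with controls in blue, Snf5 CKO in red, circles for replicate 1 and triangles for replicate 2. The pre-granulosa sum was higher in Snf5 CKO in both sexes, the Sertoli sum reached 979 and 1360 FPKM in male Snf5 CKO, and the male Leydig and stromal sums were lower in Snf5 CKO.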

How the data were processed

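RNA of sorted E15.5 germ cells had been amplified with a SMART-Seq kit and sequenced as paired ends. Per the paper's methods the authors used Tophat for mapping to mm10 and Cufflinks for quantification, and deposited a table for each sex with FPKM values per locus and library; the submitters' processing notes name TopHat2 2.2.1 and Cuffdiff 2.1.1, and the paper's text gives other versions. Confidence bounds (16 columns) were left aside. Loci with no gene name were left out of the tests, and table starts count from 0, so 1 was added. Groups follow the sample labels and column names. The log2(FPKM + 1) values of a sex entered limma 3.58.1 (R 4.3.3), with a trend on the mean and Benjamini-Hochberg adjustment over all genes that averaged at least 1 FPKM, and the fit was tested on simulated data; moderation contributed 4.74 (females) and 3.05 (males) degrees of freedom. Figures used matplotlib 3.10.9.

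Although rows were found by symbol alone, the choice of members, lists, tests and alternatives was made with earlier results of these data known. All 8 members are named, and of the other lists each gene called in either sex, the most abundant gene, and defining markers at or near 0; Acvr1b, Znrf3, Ctnnb1 and other uncalled genes of the lists were named after their values were seen. Both groups of a sex share replicate numbers, the male columns call these experiments, and the raw files of replicate 1 and replicate 2 follow different naming styles, so the number may mark a common batch. Replicate 2 minus replicate 1 correlated across genes between control and Snf5 CKO (r = 0.500 in females, 0.607 in males). The main fit held no term for the replicate number, so the standard errors and p-values above leave this pairing out. A replicate block entered only as an alternative. The alternatives were another pseudocount, filter, scaling or moderation, the replicate block, loci with status OK, and each library left out.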

Additional observations from a re-analysis of the deposited data

Results flagged for a closer look

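Some genes had both Snf5 CKO libraries on one side of the controls in females and on the other side in males. Among the 8 pre-granulosa genes these were Rspo1, with a log2 difference of 1.63 in females and -1.20 in males, and Wnt4, with 0.75 and -0.21. The male values of Wnt4 were at most 0.378 FPKM and were not tested, and its male difference within replicate 1 was only -0.03. Among the genes of the other lists called in both sexes they were Tcf7 (1.12 and -1.94), the locus that merges Insl3 with Jak3 (1.18 and -1.66) and Dnd1 (4.39 and -1.78). The difference between the sexes was not tested for any of them, because each table was normalized on its own.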

How the results depend on the processing

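With a mean of at least 5 FPKM as the filter, the number of the 8 genes called higher and lower in females was 0 and 0, since no member reached that mean, and 1347 of all genes were called lower in males, against 2141. When each library was left out in turn, between 3 and 5 members were called higher and between 0 and 1 lower in females (0 without Snf5 CKO replicate 2, where Bmp2 was lost), and in males 1 was called higher and between 0 and 1 lower (0 without Snf5 CKO replicate 1, where Rspo1 was lost). The male log2 difference of Fst was -0.17 and ranged from -0.55 to 0.20 when a library was left out, with 0.20 without control replicate 2 and 0.07 without Snf5 CKO replicate 1. The replicate block gave 2010 genes higher and 2499 lower in females and 1850 and 2216 in males, against 1994, 2490, 1763 and 2141 without it, and changed no call of the 8 genes. Of the other comparisons of single members with an alternative, 82 in females and 49 in males kept direction and side of the threshold or, untested, moved by less than the spread between replicates. Leaving out a library of a pair assumes that the lone one varies like the other group. Depth is unknown, and values under 1 FPKM rest on an unknown number of fragments.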
